A study of Mus musculus with 12 samples.

Results

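Anti-FLAG ChIP-seq of mouse embryonic stem cells that expressed FLAG-tagged GZF1 gave a narrow peak at each of 4 genes with roles in cell signalling, Gnal, Prkar2b, Mast4 and Kcnc2. The 4 genes, of 44690 annotated autosomal genes, were selected on their anti-FLAG signal in 1 kb bins where the only input library, from Cas9-GFP cells, had almost no reads. Their gene bodies with 5 kb on each side held 1085 of the 2462755 autosomal bins. In mm10, Gnal lies at chr18:67088298-67226792, Prkar2b at chr12:31958450-32061648 on the minus strand, Mast4 at chr13:102732486-103335099 on the minus strand and Kcnc2 at chr10:112269898-112466304 on the plus strand. The strand of Gnal is not given in the sources used here. The lower-coordinate end of its annotation is called its lower end. The anti-FLAG and input values are a description of how the genes were chosen, and the anti-GZF1 and H3K27ac libraries were not used to choose them.

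The series compared where GZF1 binds chromatin in embryonic stem cells, with its title placing the work at the imprinted Dlk1-Dio3 domain. Cells were fixed with formaldehyde and chromatin was cut with micrococcal nuclease (MNase) before immunoprecipitation. The table held 8 of 12 libraries, each the only library of its group, and the other 4 were not analysed here, among them both anti-FLAG controls without ectopic Flag. Cas9-GFP cells carrying ectopic Gzf1-Flag (clone 35) and RGM cells, a 129xCAST line, carrying ectopic Gzf1-Flag (clone 56) were precipitated with anti-FLAG M2. Each tagged library is thus 1 clone that overexpresses the protein. An antibody to endogenous GZF1 was used on wild-type Cas9-GFP cells, wild-type RGM cells, a Cas9-GFP control and Cas9-GFP cells with a Gzf1 knockout. The labels call the control only that, and do not say in what it differs from the wild type. Acetylation of histone H3 at lysine 27 (H3K27ac), found at active promoters and enhancers, and input chromatin without antibody came from Cas9-GFP cells, and that input is the only one for both lines. No value in the table measures Gzf1 RNA or protein, so the loss of GZF1 in the knockout was not checked.

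GZF1 is a zinc finger protein with a BTB domain that binds DNA and was first described as a transcriptional repressor. The 4 genes take different places in signalling. Gnal encodes G alpha olf, the G protein alpha subunit that links odorant receptors, and dopamine receptors in the striatum, to adenylyl cyclase. The cyclase makes cyclic AMP, which releases the catalytic subunits of protein kinase A from regulatory subunits, of which Prkar2b encodes the II beta form. Mast4 encodes a large microtubule-associated serine/threonine kinase. Kcnc2 encodes Kv3.2, a voltage-gated potassium channel of fast-spiking neurons. Gnal and Kcnc2 are known mainly from neurons.

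The libraries held 10087804 to 94184865 reads, or a mean of 3.93 reads per bin in the input and 8.61 to 35.8 in the ChIP libraries. A read density here is the reads of a bin divided by the library's autosomal mean, and a fold is that density over the local background, the median of 10 bins on each side. A bin was called at a fold of 3 or more where the local background density was at least 0.25. Intervals are exact 95% Poisson intervals for counts and exact binomial (Clopper-Pearson) intervals for ratios of counts. They cover counting error only, since sequenced reads are not independent molecules and no group had a second library, so no test between groups could be made. A low-input bin had at most 1 input read, as 23.8% of autosomal bins did. A count of 0 input reads was taken to allow 3 reads, a density of 0.764. At the start bins of 9 of 10 embryonic stem cell markers the median H3K27ac density was 3.18, with a range of 1.42 to 4.19. At 6 of 10 markers of fibroblast feeder cells it was 1.69 (range 1.21 to 2.12), and over all annotated starts it was 1.74.

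Prkar2b and Mast4 each had a start bin called in both anti-FLAG libraries besides the peak that chose them. Their promoters are shown because those start bins were also called with anti-GZF1 in both wild-type lines. The Kcnc2 start bin was called with anti-GZF1 in both lines too (3.18- and 3.86-fold in Cas9 and RGM). It was called with anti-FLAG in RGM only, and its promoters are not printed. The sequences are the 250 bases before the RefSeq start (GRCm38.p6), on the minus strand at chr12:32061278-32061527 and chr13:103334493-103334742. Capitals mark matches on either strand to TGCGC, part of the DNA element described for GZF1, or to TGCCGC, the core motif of ZFP57, which the series title names beside GZF1.

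Prkar2b promoter: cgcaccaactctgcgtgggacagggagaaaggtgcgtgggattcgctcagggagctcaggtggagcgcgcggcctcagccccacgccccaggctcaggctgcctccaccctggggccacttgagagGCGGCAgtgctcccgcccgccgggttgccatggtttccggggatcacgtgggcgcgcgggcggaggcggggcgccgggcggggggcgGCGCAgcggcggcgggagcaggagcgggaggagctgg

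Mast4 promoter: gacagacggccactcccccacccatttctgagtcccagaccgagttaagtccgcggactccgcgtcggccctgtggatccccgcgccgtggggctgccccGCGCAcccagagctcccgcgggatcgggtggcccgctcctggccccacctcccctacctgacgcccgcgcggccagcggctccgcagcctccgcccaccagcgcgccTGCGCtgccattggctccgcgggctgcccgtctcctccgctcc

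Both promoters are rich in CpG, the dinucleotide that is the main site of DNA methylation. The Prkar2b promoter held 28 CpG at 75.6% GC, and the Mast4 promoter 30 CpG at 75.2% GC, against medians of 6 CpG and 52.4% GC over 31218 promoters of the same length. TGCGC was present once in Prkar2b, on the strand opposite to the printed one, and once on each strand in Mast4, and 25.9% of all promoters held it on either strand. TGCCGC was present once in Prkar2b, on the opposite strand, and in 8.73% of all promoters. The letters TGCGC followed after 3 bases by TATA were in neither promoter and in 0.0128% of all promoters. The 4 promoters listed for Kcnc2 had 2 to 5 CpG and no match to these letters, and Gnal has no entry in the promoter table. Sequence under the peaks away from these starts was not analysed here.

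In the windows of the 4 genes, 11 bins were called in both anti-FLAG libraries, 3 at Gnal, 4 at Prkar2b, 3 at Mast4 and 1 at Kcnc2. Over all testable autosomal bins the share was 0.0347% (805 bins), and nothing is read from the members' count since that contrast chose them. Of the 11 bins, 6 were low-input bins, of 275 low-input bins in the windows. Genome-wide, 44 low-input bins were called in both, or 0.00952% of them. At least 1 called bin was present at 734 of the 44690 genes, or 1.64%. Ranked by the fold in the line where it was lower, the members' 6 low-input bins came at ranks 2 (Gnal), 4 and 23 (Prkar2b), 6 and 19 (Mast4) and 8 (Kcnc2) of the 44. At a threshold of 4-fold, or with a pseudocount of 0.5 added to density and background, 6 of the 11 member bins were called. The 44 became 17 at 4-fold and 24 when only bins with 0 input reads were taken. The members just inside the threshold were the Prkar2b start bin at 3.08-fold and the Gnal bin 1.8 kb outside its lower end at 3.36-fold, and just outside it lay the next Gnal bin, inside the gene, at 2.86-fold.

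**Figure D1:**
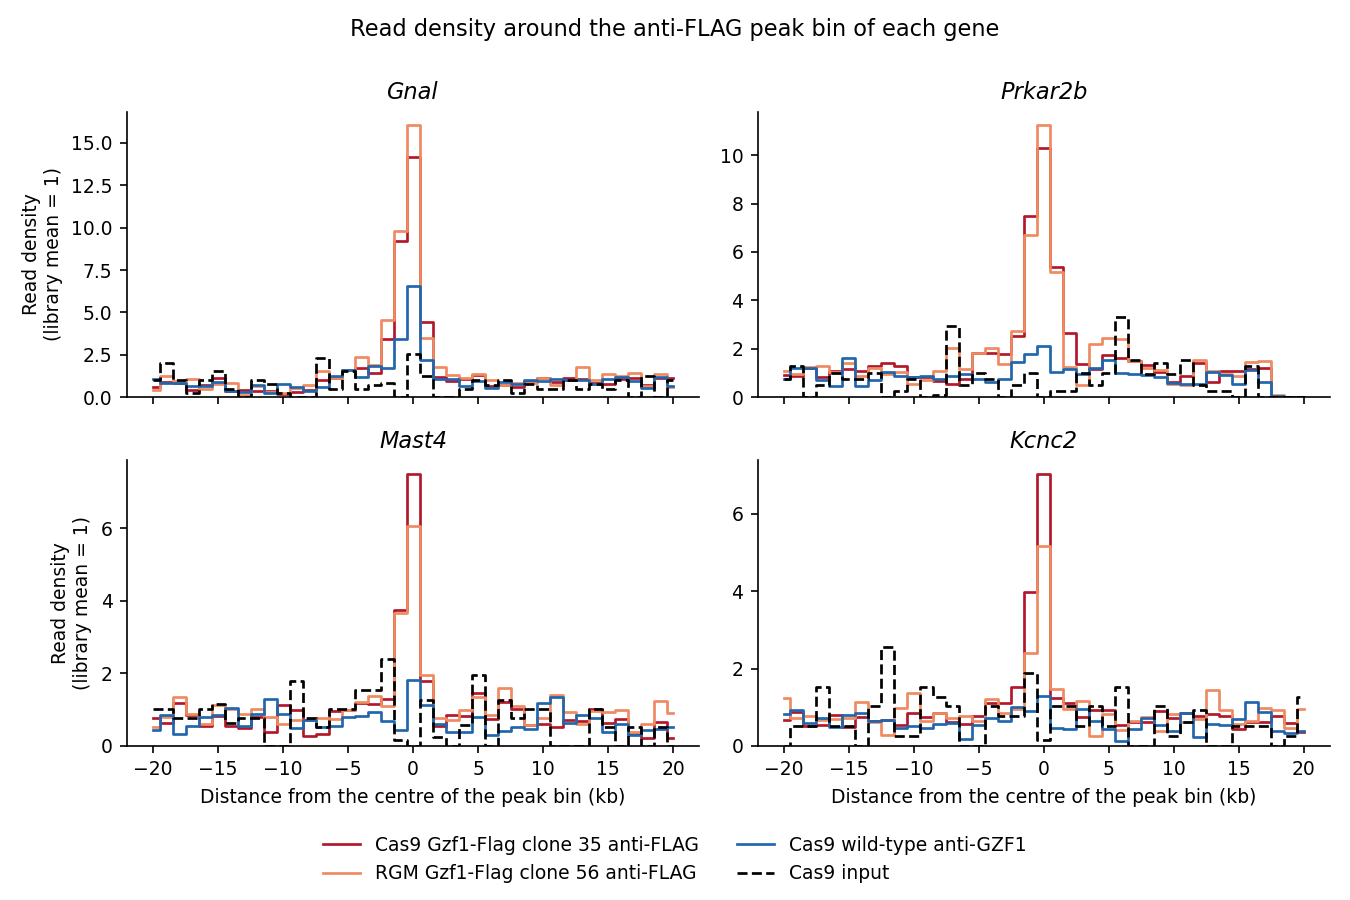
Read density (vertical axis, library mean = 1) by distance in kb from the centre of the peak bin at each gene, for both anti-FLAG libraries, Cas9 wild-type anti-GZF1 and Cas9 input. At all 4 genes 1 to 3 adjoining bins were called in both anti-FLAG libraries, and the input is at 0 or near 0 in the peak bin except at Gnal.

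Gnal, the G alpha olf gene, had the highest anti-FLAG peak of the 4, and the anti-GZF1 antibody gave a peak in the same bins in both wild-type lines. The peak bin, chr18:67088001-67089000, contains the lower end of the gene. Anti-FLAG reads were 384.9 in Cas9 (density 14.2, 95% interval 12.8 to 15.6; 13.1-fold) and 424.65 in RGM (density 16, 14.6 to 17.6; 13.2-fold). Genome-wide, 11 bins had a higher fold in the lower line, and with the mean in place of the median as local background the folds were 8.42 and 8.43. This bin held 10 input reads (density 2.55, 1.22 to 4.68; 5.0-fold), so the low-input label does not hold for the highest bin of Gnal. It holds for the adjoining bin outside the gene, chr18:67087001-67088000, with 0 input reads, where anti-FLAG was 9.01-fold in Cas9 and 8.10-fold in RGM. These densities were 12.1 and 12.8 times that of the input when 3 reads are allowed for the input.

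With anti-GZF1, the Gnal peak bin had 154.75 reads in Cas9 wild type (density 6.56, 5.57 to 7.68; 6.59-fold) and 108.05 in RGM wild type (density 12.5, 10.3 to 15.2; 11.6-fold). In all, 58 bins had a higher fold in the Cas9 and 60 in the RGM wild-type library. The bin with 0 input reads had 81.15 reads at 3.46-fold in Cas9 and 33.25 reads at 3.83-fold in RGM. Both bins therefore stood above their surroundings with both antibodies and in both lines. In the control the peak bin had 37 reads (density 1.03, 0.994-fold) and in the knockout 42.9 reads (density 1.3, 1.06-fold), at the local background in each. The control density was 0.158 times that of the wild type (0.107 to 0.227). H3K27ac was 2.82 (2.05 to 3.78) in the peak bin, 3.20-fold, and 1.3 in the 0-input bin, 1.53-fold.

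Prkar2b, the II beta regulatory subunit of protein kinase A, had its anti-FLAG peak deep inside the gene, and a lower called bin at its start. The peak bin, chr12:32010001-32011000, has its centre 51.1 kb into the gene and held 0 input reads. Anti-FLAG reads were 279.8 in Cas9 (density 10.3, 9.12 to 11.6; 7.18-fold) and 297.4 in RGM (density 11.2, 9.996 to 12.6; 7.80-fold). These densities were 13.5 and 14.7 times that of the input when 3 reads are allowed for the input. The bins on both sides were called as well, at 5.24- and 4.64-fold on the side away from the start (4 input reads) and 3.76- and 3.58-fold on the other (1 input read). As at Gnal, 3 adjoining bins were called in both libraries.

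Anti-GZF1 was lower than anti-FLAG at the internal Prkar2b peak. The peak bin had 50.05 reads in Cas9 wild type (density 2.12; 2.24-fold, 1.66 to 2.95) and 33 in RGM wild type (density 3.83; 3.67-fold, 2.52 to 5.15). The Cas9 fold was below the call and the RGM fold above it, with both intervals above 1, but with the pseudocount the RGM fold was 2.80 and no longer called. The control had 68.95 reads at 1.45-fold and the knockout 36 reads at 1.17-fold. H3K27ac was not apart from its local background there, with 13 reads at 0.909-fold (0.484 to 1.55). The start bin of Prkar2b, chr12:32061001-32062000, had the reverse order of the antibodies: 85.4 and 138.5 anti-FLAG reads (3.08- and 4.26-fold in Cas9 and RGM) and 97.55 and 68 anti-GZF1 reads (4.07- and 6.18-fold). It held 13 input reads, 3.71-fold over the input's own background, and H3K27ac was 2.11-fold.

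Mast4, the largest of the genes at 603 kb, repeated this layout with an internal peak and a start bin. The internal bin, chr13:102993001-102994000, lies 341.6 kb into the gene and held 0 input reads. Anti-FLAG reads were 204 in Cas9 (density 7.5, 6.51 to 8.60; 7.63-fold) and 160.3 in RGM (density 6.06, 5.16 to 7.07; 6.64-fold). These densities were 9.81 and 7.93 times that of the input, with the same allowance of 3 input reads. The next bin, farther from the start, was called at 3.80- and 4.01-fold with 0.65 input reads.

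Of the 4 peaks, the Mast4 one had the fewest anti-GZF1 reads in RGM. It had 42.75 reads in Cas9 wild type (density 1.81; 3.17-fold, 2.29 to 4.27) and 12.25 in RGM wild type (density 1.42; 1.63-fold, 0.851 to 2.84), an interval that takes in 1. The Cas9 call was lost with 5 bins of background on each side (2.46-fold) and with the pseudocount (2.16-fold). The control had 22 reads (0.878-fold), the knockout 16.5 (0.695-fold) and H3K27ac 11.3 (1.41-fold), all close to the local background. At the start bin, chr13:103334001-103335000, anti-FLAG was 3.41- and 4.44-fold in Cas9 and RGM, anti-GZF1 4.69- and 7.48-fold, H3K27ac 3.43-fold and input 3.94-fold with 14 reads. The start bin thus had more anti-GZF1 signal than the internal bin in both lines, and less anti-FLAG signal.

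Kcnc2, the Kv3.2 channel gene, had its peak at the far end of the gene from its start. The peak bin, chr10:112465001-112466000, ends 0.304 kb before the annotated 3′ end and held 0.55 input reads. Anti-FLAG reads were 191.6 in Cas9 (density 7.04, 6.08 to 8.11; 8.26-fold) and 136.7 in RGM (density 5.17, 4.34 to 6.11; 6.21-fold). Anti-GZF1 gave 30.7 reads in Cas9 wild type (density 1.3; 2.36-fold, 1.60 to 3.36) and 18.9 in RGM wild type (density 2.20; 3.55-fold, 2.13 to 5.55). As at Prkar2b, the Cas9 fold was below the call and the RGM fold above it, and the RGM call was lost with the pseudocount (2.41-fold). The control had 45 reads at 1.72-fold, the knockout 16.35 reads at 0.760-fold and H3K27ac 15 reads at 1.4-fold.

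**Figure D2:**
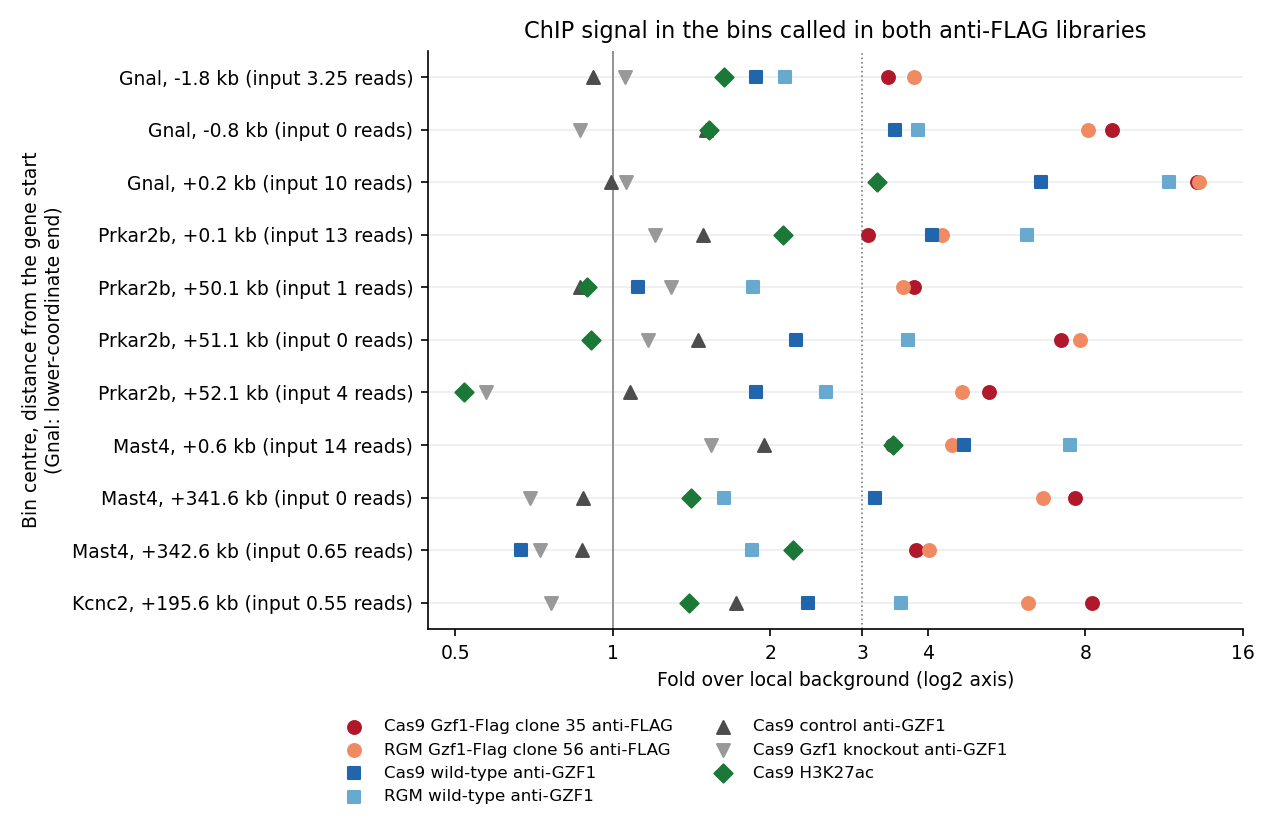
Fold over local background (horizontal log2 axis) in the 7 ChIP libraries for each of the 11 bins called in both anti-FLAG libraries, with the bin's distance from the gene start and its input reads; the solid line marks 1 and the dotted line the call at 3. Anti-GZF1 passes anti-FLAG of the same line at the Prkar2b and Mast4 start bins and lies below it at the internal bins and at all 3 Gnal bins, and control and knockout lie between 0.572 and 1.95 (at the Mast4 start the H3K27ac point covers that of Cas9 anti-FLAG).

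The question for the untagged cells was whether the antibody to endogenous GZF1 had signal at the same places. Of the peak bins, only that of Gnal was called with anti-GZF1 in both wild-type lines. Over the whole gene windows, not only the anti-FLAG bins, Cas9 wild-type anti-GZF1 called 7 of the 1085 member bins, against 0.222% of all bins. RGM wild type called 20, near its share of 1.68% over all bins. The control called 0 member bins (0.0156% of all bins) and the knockout 0 (0.0192%). H3K27ac called 3 member bins, near its share of 0.32% over all bins, at the Gnal lower end, the Mast4 start and the Kcnc2 start. The RGM wild-type library was the shallowest ChIP library, and called more bins genome-wide than the deeper Cas9 one; the part of depth in its counts was not tested. Outside the called bins, the densities of the 8 libraries were 0.964 to 1.32 over the Gnal window, 0.918 to 1.23 over Prkar2b, 0.747 to 1.00 over Mast4 and 0.614 to 0.791 over Kcnc2. All 8 libraries, input included, were thus below their autosomal means over Kcnc2.

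Across the genome, low-input called bins had lower anti-GZF1 and H3K27ac folds than the other called bins, and called bins with an annotated start had higher ones than those without. Over the 44 low-input bins called in both anti-FLAG libraries, which include 6 of the members, the median fold with anti-GZF1 was 2.16 (Cas9) and 2.88 (RGM). Over the 761 other called bins it was 3.30 and 4.77. Median H3K27ac was 1.64-fold in the low-input and 2.84-fold in the other called bins. A RefSeq start lay in 5 of the 44 low-input bins and in 26.0% of all 805 called bins. Over all testable bins, called or not, one lay in 0.469% of low-input bins and in 1.14% of all bins. Median anti-GZF1 folds of all low-input bins were 0.908 (Cas9) and 0.862 (RGM), and that of H3K27ac 0.898, against 1 over all bins. Low-input bins thus had lower medians among all bins as well, though by a smaller margin than among called bins. Called bins with a start had a median of 12 input reads and anti-GZF1 folds of 3.75 and 6.21, and those without had 6.15 reads and folds of 2.95 and 3.99. Input reads, start position and anti-GZF1 signal moved together in these bins, and their parts cannot be told apart with 1 input library.

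**Figure D3:**
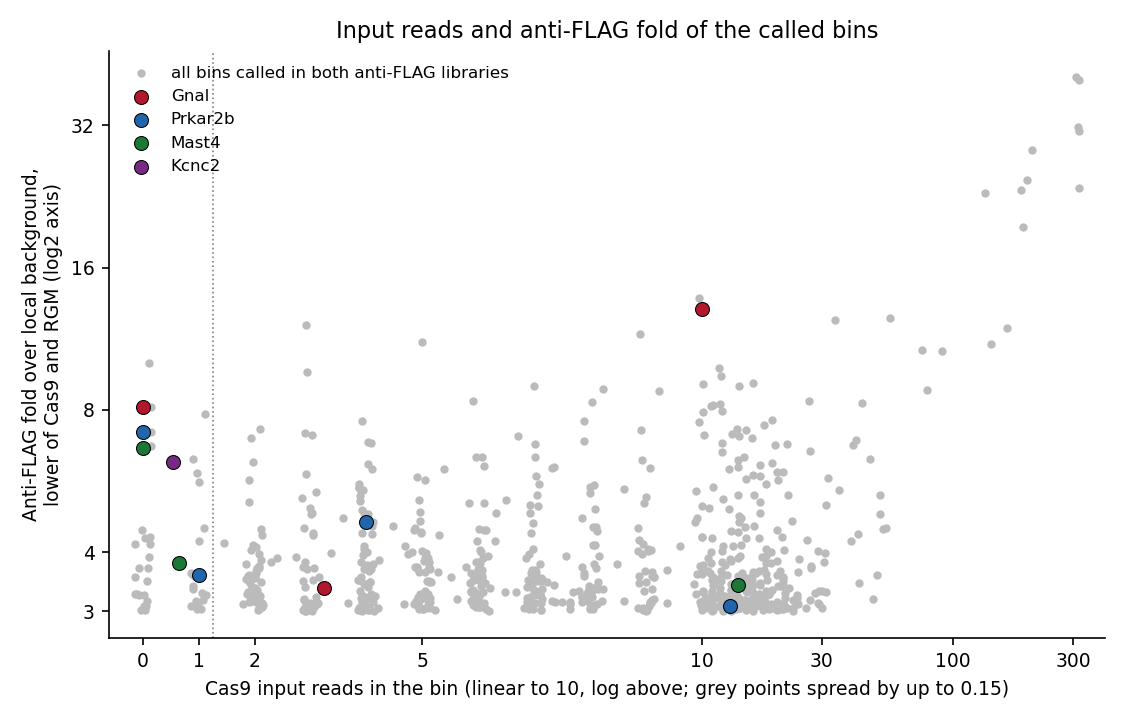
Anti-FLAG fold in the line where it was lower (vertical log2 axis) against Cas9 input reads (linear to 10, log above) for the 805 bins called in both anti-FLAG libraries; coloured points are the members' bins and the dotted line separates bins with at most 1 input read. The members' low-input bins at 6.21- to 8.10-fold are among the highest left of the line, while the Gnal peak bin has 10 input reads and the Prkar2b and Mast4 start bins 13 and 14.

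Input density was also taken over wider windows around the peak bins. Over 21 kb the interval took in the library mean at Prkar2b and Mast4 and lay below it at Gnal and Kcnc2, but all of these intervals overlap. Over 21 kb around each peak bin the input density was 0.728 (0.555 to 0.937) at Gnal, 0.898 (0.705 to 1.13) at both Prkar2b and Mast4, and 0.740 (0.566 to 0.95) at Kcnc2. Over 3 kb it was 1.27 (0.713 to 2.10) at Gnal and 0.425 (0.138 to 0.991) at Prkar2b. At Mast4 it was 0.480 (0.169 to 1.07) and at Kcnc2 1.02 (0.526 to 1.78). The 3 kb windows include the low-input bins for which the genes were chosen, so these values are in part set by that choice. With a mean of 3.93 input reads per bin, a single bin with no reads gives a poor estimate of the input. The folds over the input above hold only under the allowance of 3 reads, a density of 0.764, in bins chosen for few input reads. The local input background had a density of 0.726 at the Gnal bin with 0 input reads. It was 0.853 at the Prkar2b peak and 1.02 at the Mast4 peak, so these folds are not lower bounds.

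The knockout was compared with the control to ask whether anti-GZF1 signal at these bins needed Gzf1. At 3 of the 11 called bins the whole interval of the knockout to control ratio lay below 1, and at none above. Adjoining bins of the same peak are among the 11, so these bins are not independent of each other. Over all bins with at least 20 reads in the 2 libraries together, 6.84% lay wholly below 1 and 6.79% above, so more bins left 1 than counting error alone gives. Among the 805 bins called in both anti-FLAG libraries, 6.96% lay below and 9.32% above, so called bins as a set did not lean below 1. Their median fold was only 1.43 in the control and 1.36 in the knockout, which left little signal to lose. Of the 44 low-input called bins, which include member bins, 4 lay below and 1 above. The ratio was 0.395 (0.204 to 0.696) at the Kcnc2 peak, 0.567 (0.368 to 0.860) at the Prkar2b peak and 0.382 (0.215 to 0.682) in the Prkar2b bin beside it. In that last bin the control was 1.08-fold over its local background (0.801 to 1.42) and the knockout 0.572-fold (0.337 to 0.908). The control thus was not apart from its surroundings in that bin. At Gnal the ratio was 1.26 (0.794 to 2.01) in the peak bin and 0.699 (0.439 to 1.08) in the bin with 0 input reads, and at the Mast4 peak 0.815 (0.388 to 1.57), all intervals that take in 1. The control was at its local background in the peak bins of Gnal (0.994-fold) and Mast4 (0.878-fold). The ratios of these peak bins therefore cannot show whether signal was lost in the knockout. Over 3 kb around the peak bins the ratio was 0.711 (0.522 to 0.972) at Kcnc2, closer to 1, and 0.794 (0.618 to 1.01) at Gnal, on the other side of 1 from the single bin. The start bins gave 0.727 (0.483 to 1.08) at Prkar2b and 0.724 (0.473 to 1.10) at Mast4.

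When both libraries were set relative to the 1 Mb around each bin, 4 of the 11 bins lay below 1, against 5.5% of all bins, and the Gnal bin with 0 input reads joined the others at 0.577 (0.362 to 0.887). The control itself was called at 0 of these bins. Against the wild type of the same line it was 0.158 times as high at the Gnal peak, 0.339 (0.192 to 0.577) at the Mast4 peak, 0.444 at the Prkar2b start and 0.436 at the Mast4 start, while at the Prkar2b peak it was 0.908 (0.623 to 1.34) and at the Kcnc2 peak 0.966 (0.592 to 1.56). At the first 4 of these bins the control was 0.878- to 1.95-fold over its own local background. A lower control was not particular to these genes. Over all 805 bins called in both anti-FLAG libraries the median density was 1.57 in the control and 3.22 in Cas9 wild type. In those with a RefSeq start it was 1.99 against 4.55. Whether the lower control comes from the cells, the precipitation or the library cannot be told apart with 1 library each.

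**Figure D4:**
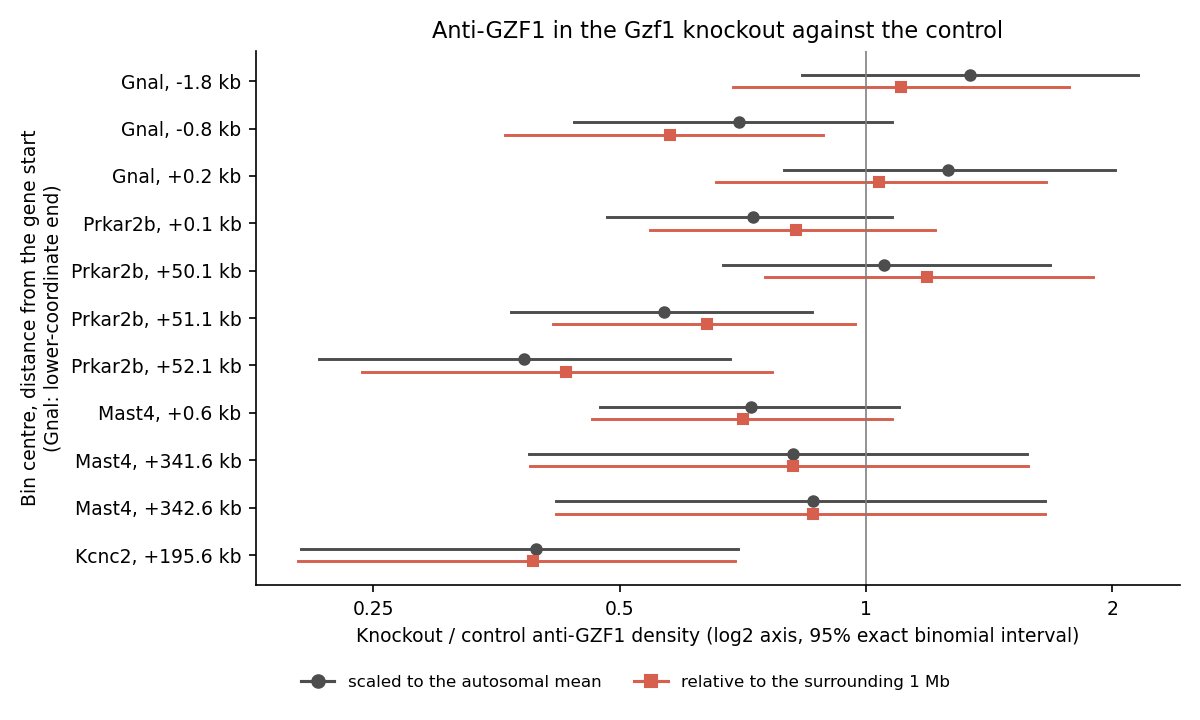
Ratio of knockout to control anti-GZF1 density (horizontal log2 axis, exact 95% binomial intervals) for the 11 called bins, scaled to the autosomal mean (circles) and relative to the surrounding 1 Mb (squares). The Kcnc2 peak bin, the Prkar2b peak bin and the Prkar2b bin beside it lie below 1 on both scales, and the Gnal bin 0.8 kb outside the lower end only on the second.

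The 2 lines were compared within each antibody. With anti-GZF1, RGM wild type was higher than Cas9 wild type at the Gnal peak by a ratio of 1.91 (1.48 to 2.46) and at the Prkar2b peak by 1.81 (1.13 to 2.86). At the Kcnc2 peak the ratio was 1.69 (0.896 to 3.07) and at the Mast4 peak 0.785 (0.367 to 1.48), neither apart from 1. The start bins were higher in RGM in both comparisons, with anti-GZF1 ratios of 1.91 at Prkar2b and 1.81 at Mast4 and anti-FLAG ratios of 1.67 (1.26 to 2.21) and 1.77 (1.33 to 2.38). Called bins with a RefSeq start were higher in RGM genome-wide too. Their median density was 6.99 in RGM and 4.55 in Cas9 with anti-GZF1, and 4.87 and 3.93 with anti-FLAG. Over all called bins the anti-GZF1 medians were 3.95 in RGM and 3.22 in Cas9. At the 4 peaks the RGM to Cas9 ratio with anti-FLAG was 1.13 (0.986 to 1.31) at Gnal and 1.09 (0.923 to 1.29) at Prkar2b. It was 0.808 (0.651 to 0.996) at Mast4 and 0.733 (0.585 to 0.918) at Kcnc2, both intervals below 1. Relative to the surrounding 1 Mb these anti-FLAG ratios were 1.00, 1.03, 0.622 and 0.705. Those of the start bins were then 1.57 at Prkar2b and 1.41 (1.06 to 1.90) at Mast4.

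The other genes of the same pathways and families rarely had a called bin. Of 37 other genes of cyclic AMP and protein kinase A signalling, 1 did, Prkar1a, which encodes the I alpha regulatory subunit. It had 2 called bins, the higher one at 4.96-fold in the lower line with 3 input reads, anti-GZF1 folds of 2.25 and 1.97, and 1.11 in the control and 0.861 in the knockout. Of 15 other G alpha subunit genes and of 4 other MAST kinase genes, 0 had one. Of 11 other Kv3 and Kv1 potassium channel genes, 1 did, Kcnc4, which encodes Kv3.4, at 3.54-fold with 9 input reads, anti-GZF1 folds of 3.17 and 5.87, 0.917 in the control and 1.35 in the knockout. Against 1.64% of all genes and 2.5% of protein-coding genes, counts of 0 or 1 in lists of this size cannot show a difference. The median of each gene's highest anti-FLAG fold in the lower line was 1.96, 2.0, 1.68 and 1.96 in the 4 lists, against 1.54 over all genes and 1.79 over protein-coding genes, which leaves the MAST list below the latter. The genes of the first 3 lists were longer, with medians of 90, 60 and 48.5 bins against 29 over protein-coding genes, and longer genes have more bins to be high in. The potassium channel genes had a median of 29 bins.

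Outside these lists, the genes most like the members were sought among the 22 other genes whose highest bin was itself a called low-input bin, by Euclidean distance to the members' mean log2 fold profile over the 7 ChIP libraries. Nearest was Gm34081 (distance 1.03), whose bin chr12:109527001-109528000 lies between Dlk1 and Meg3 in the imprinted domain named in the series title. It held 0 input reads, with anti-FLAG at 12.2- and 10.1-fold, anti-GZF1 at 3.06- and 2.91-fold, 1.21-fold in the control and 0.237-fold in the knockout. Gm3963 and Gm52052 followed at 1.08 with 1 shared bin, then Zfp385b, which encodes a zinc finger protein, at 1.18, and Gm20208 at 1.24, whose bin Myt1l shares. The members themselves lay at 0.746 (Prkar2b), 0.825 (Kcnc2), 1.23 (Mast4) and 2.18 (Gnal), so Gnal was farther from the mean of the 4 than the 5 genes named. The distance is a description, as the anti-FLAG values in it chose the members.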

How the data were processed

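The table gave reads in 1 kb bins for 8 libraries. Per the submitters' processing notes, cutadapt, Bowtie2 2.5.4, SAMtools and deepTools were used with mm10. The deposited values are estimated counts (expected counts) of reads per bin, left unscaled by the authors. They come in steps of 0.05, as reads at bin edges are shared out. Duplicate and mapping quality filters are not given in the sources used here. MNase digestion and mappability can leave bins without reads. No deposited column of values was unused (0 columns).

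Each library was divided by its autosomal mean. Local background, the call at 3-fold, the limit of 0.25 on the background and the limit of 1 input read are given with the results. The count model was not used because each group had 1 library. For intervals of ratios, counts were rounded to whole reads. Genes and promoters came from RefSeq tables of GRCm38.p6, and the promoter table matched 3 of the 4 genes. Named genes were the members, list genes with a bin called in both lines (up to 4 a list) and the 5 genes with the smallest profile distance (pseudocount 0.5). The members and the lists were chosen with earlier results of these data known. Python 3.11.15, numpy 2.4.6, pandas 2.3.3, scipy 1.17.1 and matplotlib 3.10.9 were used, and the fold and interval code was tested on simulated data. Alternatives were the size and kind of the local background, a pseudocount, the scaling, the thresholds and the windows.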

Additional observations from a re-analysis of the deposited data

How the results depend on the processing

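The knockout to control ratio at the Gnal peak bin, whose interval takes in 1, went from 1.26 to 0.794 over 3 kb, and no other ratio or fold at the peak bins crossed 1 under the alternatives run. The 8 anti-FLAG densities at the peak bins moved by less than their counting intervals with scaling to the autosomal median. Anti-FLAG folds in Cas9 and RGM moved to 9.19 and 8.72 at Gnal, 5.66 and 5.33 at Prkar2b, 6.48 and 5.26 at Mast4 and 6.39 (Cas9) at Kcnc2 with 5 bins of local background on each side. With 20 bins they were 14.8 and 15.2 at Gnal, 8.85 and 9.48 at Prkar2b and 9.96 (Cas9) at Mast4. With the mean as background they were 8.42 and 8.43 at Gnal, 5.48 and 5.82 at Prkar2b, 5.38 (RGM) at Mast4 and 6.87 (Cas9) at Kcnc2. A pseudocount of 0.5 gave 9.25 and 9.64, 5.58 and 6.05, 5.40 and 4.64, and 5.58 and 4.26 in the same gene order. All of these remained above 3. Anti-GZF1 at Gnal was 4.69 (5 bins) and 4.72 (pseudocount) in Cas9 and 8.09 (5 bins), 14.7 (20 bins) and 8.24 (pseudocount) in RGM. Calls were lost at Mast4 in Cas9 (2.46 with 5 bins, 2.16 with the pseudocount) and, with the pseudocount, in RGM at Prkar2b (2.80) and Kcnc2 (2.41). The knockout to control ratio at Kcnc2 was 0.711 over 3 kb.

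Member bins called in both anti-FLAG libraries numbered 6 at 4-fold and 6 with the pseudocount, 11 with windows of 20 kb and 9 with the gene body alone. In alternatives added after the data were seen, 13 were called in Cas9 alone and 13 in RGM alone. Low-input called bins numbered 24 with 0 input reads, 99 with at most 2, 748 at 2-fold and 17 at 4-fold. At 2-fold, 17, 8, 1 and 5 genes of the 4 lists in the order above had a called bin, against 20.4% of all genes. No paired analysis was possible because each group had 1 library, and no library could be left out for the same reason. Depth limits the input most, since a bin with 0 reads was taken to allow a density of 0.764.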

Other observations

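Beside the bins called in both lines, 4 bins in the windows of the 4 genes were called with anti-FLAG in 1 line only. At the start of Kcnc2, the bin chr10:112270001-112271000 was 3.38-fold (2.65 to 4.25) in RGM and 1.70-fold (1.17 to 2.37) in Cas9. There anti-GZF1 was 3.18-fold in Cas9 and 3.86-fold in RGM wild type, H3K27ac 3.64-fold, control 1.28-fold and knockout 1.41-fold, with 8 input reads. Its values resemble those of the Prkar2b and Mast4 start bins more than those of the Kcnc2 peak. A bin farther into Kcnc2, chr10:112272001-112273000, was 3.19-fold in RGM and 1.89-fold in Cas9 with 13 input reads. The bins beside the Gnal and Kcnc2 peaks were called in Cas9 only, at 4.10-fold against 2.86-fold in RGM at Gnal and 4.66-fold against 2.84-fold at Kcnc2.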
